A study of Mus musculus with 35 samples.

Results

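The 38 genes described here encode the glycolytic enzymes and glucose carriers (20 genes), the proteins that decide the fate of pyruvate (9 genes) and the oxygen-sensing and hypoxia-response system (9 genes). They were taken by symbol from a table of 55011 genes, and all 38 were in it. Regulatory T cells (Tregs, CD4+ T cells that restrain immune responses) had been sorted on CD4 and CD25 from visceral adipose tissue (VAT) and from spleen of wild-type male C57BL/6 mice, retired breeders older than 35 weeks, kept under 12 h of light and 12 h of dark. Zeitgeber time (ZT) counts the hours from lights-on, so that the dark phase begins at ZT12. VAT Tregs had 3 libraries at each of ZT0, ZT4, ZT8, ZT12 and ZT16 and 2 at ZT20, 17 in all, and spleen Tregs had 3 at each of the 6 times, 18 in all. Each library came from 1000 sorted cells. The labels do not say whether libraries of a time and tissue came from separate mice or from pools, so the p-values measure the spread between libraries.

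Glycolysis splits glucose into pyruvate. Hexokinase traps glucose in the cell, phosphofructokinase commits it to breakdown, and aldolase, glyceraldehyde-phosphate dehydrogenase, enolase and pyruvate kinase carry it to the end product. Pyruvate is then either reduced to lactate by lactate dehydrogenase and exported, or burned in mitochondria after passing the pyruvate dehydrogenase complex, which the pyruvate dehydrogenase kinases switch off. When oxygen is plentiful, prolyl hydroxylases (PHD enzymes, from the Egln genes) mark the HIF-1α protein for destruction by the von Hippel-Lindau protein. When oxygen is short, HIF-1α persists and switches on genes for glycolysis, lactate production, the kinases and some of its own hydroxylases. Tregs are known to rely less on glycolysis than effector T cells and to burn fatty acids, and the Tregs that live in fat form a distinct population.

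Of the 38 genes, 37 passed the filter on low counts. Vegfa, the angiogenic growth factor gene, did not: 4 reads were counted over the 17 VAT libraries and 5 over the 18 spleen libraries, and 28 of the 35 libraries had none. Library depth was 2178238 to 6260185 counts in VAT and 2069319 to 5328695 in spleen. Treg identity genes were measured throughout, with median levels of 713 CPM in VAT and 508 CPM in spleen for Foxp3, which defines the lineage. Of the 6 identity genes, 5 were called higher in VAT and 1 lower. Cd3e had medians of 167 CPM in VAT and 321 CPM in spleen, and Ctla4 2286 CPM in VAT and 394 CPM in spleen. Levels are given as CPM, the counts divided by the library size after TMM, a scaling of library sizes estimated from the bulk of the genes, on the usual CPM scale. The 7 adipocyte markers summed to 4.72 to 25.2 CPM in VAT and 17.9 to 33.5 CPM in spleen, mostly through Lipe (medians of 15.3 CPM in VAT and 24.5 CPM in spleen), and Adipoq had medians of 0 CPM in VAT and 0.258 CPM in spleen. Only 2 passed the filter, 1 higher in VAT and 1 lower. Immediate early genes, 8 of 8 of which were higher in VAT, summed to 30920 to 45890 CPM in VAT and 492 to 944 CPM in spleen. The 6 B cell markers, mostly Ighm, summed to 93.6 to 305 CPM in VAT and 1197 to 3084 CPM in spleen. Of the 4 of these that were tested, 3 were lower in VAT, and Pax5, a defining marker, had a median of 0 in both tissues. The markers of neutrophils and of stromal or mesothelial cells summed higher in VAT (149.9 to 853 CPM in VAT and 4.72 to 17.1 CPM in spleen, and 74.1 to 144 CPM in VAT and 0.919 to 10.5 CPM in spleen), mostly through Mmp9 and Lrrn4. The other neutrophil markers (S100a8, S100a9, Ly6g and Elane) had a median of 0 in both tissues. Of the stromal or mesothelial markers, 3 of the 4 tested were higher in VAT, and medians were 1.06 CPM in VAT and 0 CPM in spleen for Col1a1, 0.749 CPM in VAT and 0.318 CPM in spleen for Col3a1, and 0.749 CPM in VAT and 0.115 CPM in spleen for Dcn. Those of endothelial cells summed lower (23.01 to 53.1 CPM in VAT and 163 to 341 CPM in spleen), mostly through Pecam1, with 1 of 3 tested called lower. What part these differences have in the results below was not tested.

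HIF binds a short core that begins with an A or a G and ends in CGTG. The windows around the transcription start of 5 members are shown because their levels carry the main findings: Egln3 and Pdk1 had the largest tissue differences of a hypoxia gene and of a pyruvate gene, and Kdm3a, Eno1 and Ldha are among those with a daily rhythm. Each is the RefSeq window (GRCm38.p6) of 250 bases before to 50 bases after the start nearest to the 5′ end of the gene in GENCODE M21, read 5′ to 3′ in the direction of the gene, and the capitals mark ACGTG or GCGTG on either strand.
Egln3 (chr12:54203825-54204124, minus strand): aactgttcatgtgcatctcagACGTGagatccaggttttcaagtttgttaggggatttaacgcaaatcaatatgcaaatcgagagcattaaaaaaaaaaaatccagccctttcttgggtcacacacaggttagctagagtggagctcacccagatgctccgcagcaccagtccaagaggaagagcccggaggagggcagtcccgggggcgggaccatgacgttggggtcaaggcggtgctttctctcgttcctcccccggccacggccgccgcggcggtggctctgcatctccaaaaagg
Pdk1 (chr2:71872974-71873273, plus strand): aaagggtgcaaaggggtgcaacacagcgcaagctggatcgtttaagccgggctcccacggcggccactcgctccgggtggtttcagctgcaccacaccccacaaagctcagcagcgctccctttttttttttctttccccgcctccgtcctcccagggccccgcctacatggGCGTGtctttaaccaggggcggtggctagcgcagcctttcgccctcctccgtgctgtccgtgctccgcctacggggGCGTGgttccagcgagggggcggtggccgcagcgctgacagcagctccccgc
Kdm3a (chr6:71632868-71633167, minus strand): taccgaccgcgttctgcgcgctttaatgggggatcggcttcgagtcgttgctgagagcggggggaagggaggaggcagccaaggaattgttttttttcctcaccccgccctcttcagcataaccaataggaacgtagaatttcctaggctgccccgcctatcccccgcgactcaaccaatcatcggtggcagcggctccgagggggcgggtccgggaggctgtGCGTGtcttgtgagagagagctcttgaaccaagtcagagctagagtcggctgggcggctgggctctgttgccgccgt
Eno1 (chr4:150236458-150236757, plus strand): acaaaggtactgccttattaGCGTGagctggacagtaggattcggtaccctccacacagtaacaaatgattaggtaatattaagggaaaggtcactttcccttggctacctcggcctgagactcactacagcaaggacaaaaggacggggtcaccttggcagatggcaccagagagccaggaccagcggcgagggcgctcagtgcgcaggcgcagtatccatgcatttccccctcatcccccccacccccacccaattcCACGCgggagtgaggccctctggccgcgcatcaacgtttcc
Ldha (chr7:46845554-46845853, plus strand): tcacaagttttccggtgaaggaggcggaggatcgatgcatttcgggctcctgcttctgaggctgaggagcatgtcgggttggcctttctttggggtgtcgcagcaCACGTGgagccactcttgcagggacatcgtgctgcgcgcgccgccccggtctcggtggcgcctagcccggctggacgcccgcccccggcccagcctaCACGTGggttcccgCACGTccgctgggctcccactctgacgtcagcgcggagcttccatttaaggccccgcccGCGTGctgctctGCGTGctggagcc
The Ldha window held 7 matches, more than any of the other four. Some of them overlap, because CACGTG, the E-box read by clock factors and by MYC, contains ACGTG on both strands, and the Ldha window had CACGTG at 2 places. The Eno1 and Pdk1 windows held 2 matches each and the Egln3 and Kdm3a windows 1 each. A window was at hand for 36 of the 38 members, and 28 of the 36 (77.8%) held at least 1 match, where 43.8% of all 32851 RefSeq windows of this length did. CACGTG was in 7 of the 36 (19.4%), where 7.15% of all windows held it. Each member gave 1 window, while the full set held every RefSeq window, of genes expressed here or not. The sets are thus unlike, they were not matched for base content, and the difference between their shares was not tested. The matches are counts of letters, and they do not show that a factor binds there.

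The first comparison asked which members differed between VAT and spleen Tregs over the whole day. Of the 37 members tested, 21 were higher in VAT and 8 lower, with 8 not called, by edgeR's quasi-likelihood test at an adjusted p under 0.05 (Benjamini-Hochberg over 15910 genes). Among all genes tested, 62.2% were called, 28.4% as higher and 33.8% as lower. The median log2 fold change of the 37 was 0.32, where that of all genes tested was -0.11. Of the 29 called members, 25 moved in the same direction at all 6 times. The call itself was made on the average of these times, and the share over all genes was not computed. The call of Eno2 (adjusted p = 0.0513), Slc16a1 (0.0852) and Pdk2 (0.0577) was lost without replicate C of VAT at ZT20. The count depends on the scaling: with library totals in place of TMM, the median of all genes moved from -0.11 to -0.45, and 12 members were higher in VAT and 17 lower, where 2856 of all 15910 genes were higher and 8514 lower. Of the members that rose, Slc2a1, Hk1, Pfkl, Pfkm, Pgk1, Eno2 and Slc16a1 were then not called, and Gpi1 and Bnip3l were called lower. In these bulk libraries, fewer cells that express a gene and less of its RNA per cell cannot be told apart.

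**Figure D1:**
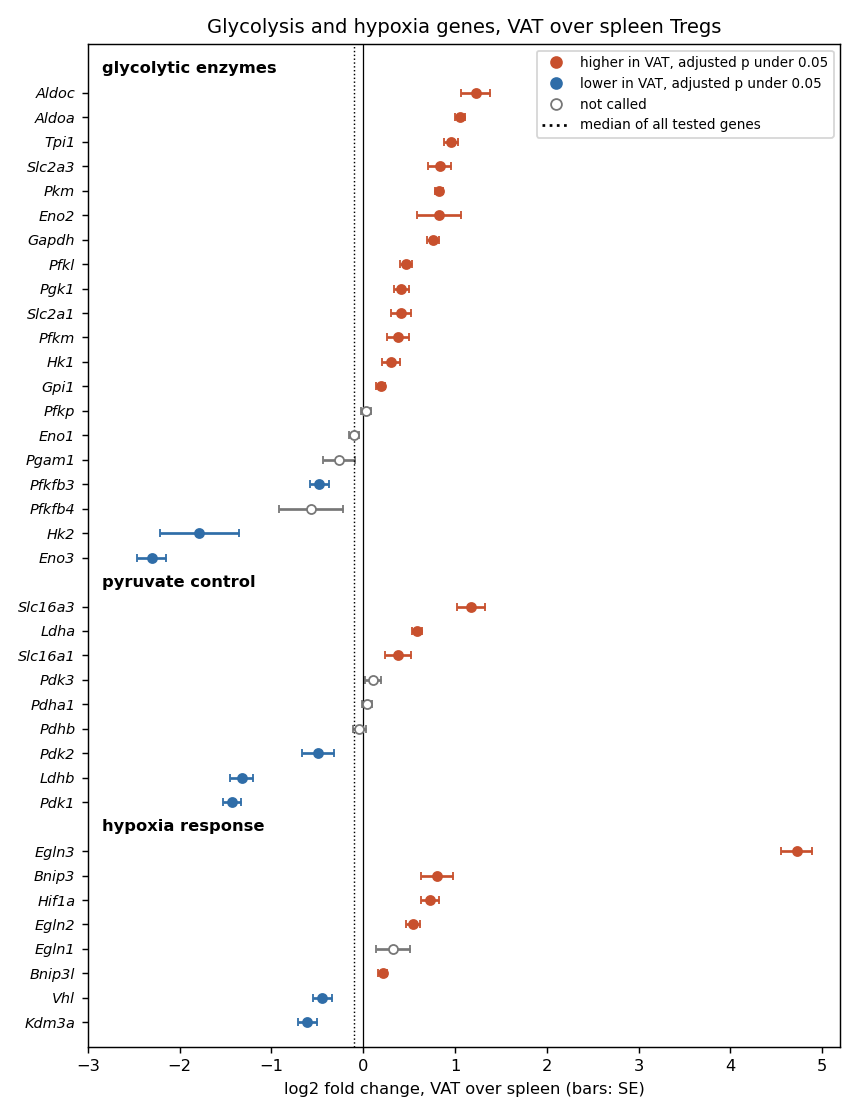
Log2 fold change of each of the 37 tested members, VAT over spleen Tregs, on the x axis, by role, with bars for the SE; filled points passed an adjusted p of 0.05 and the dotted line is the median of all genes tested (-0.11). Egln3 stands at 4.72, far from the rest, and Eno3 (-2.31), Hk2 (-1.79), Pdk1 (-1.43) and Ldhb (-1.32) are the lowest.

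Glycolytic enzymes and glucose carriers were mostly higher in VAT: 13 of 20 rose, 3 fell and 4 were not called, and their median log2 fold change was 0.40. Aldoa, the main aldolase of T cells, had 824, 1025 and 1478 CPM (lowest, median and highest) in the VAT libraries, against 414, 489 and 757 CPM in the spleen libraries (log2 fold change 1.06 ± 0.06 SE, adjusted p = 5.87e-19). No VAT library was as low as any spleen library. The groups were likewise apart for Tpi1, triose-phosphate isomerase, with medians of 112 CPM in VAT and 62.1 CPM in spleen, and for Pkm, pyruvate kinase, with medians of 791 CPM in VAT and 440.2 CPM in spleen. With Egln3, these were the 4 of 37 members whose VAT libraries all lay above the spleen libraries, where 6.4% of all genes did.

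Aldoc, a second aldolase gene, had the largest rise among these enzymes although it was scarce, with 6.53, 16.4 and 33.3 CPM (lowest, median and highest) in the VAT libraries, against 3.97, 6.26 and 12.2 CPM in the spleen libraries (log2 fold change 1.22 ± 0.16 SE, adjusted p = 2.42e-08). Its groups overlapped. Both glucose carriers rose: Slc2a3 (GLUT3), with medians of 260.2 CPM in VAT and 148 CPM in spleen, had a log2 fold change of 0.83 ± 0.13, and Slc2a1 (GLUT1) one of 0.41 ± 0.10. The other enzymes that rose were Eno2 (0.83 ± 0.24), Gapdh (0.76 ± 0.06), Pfkl (0.47 ± 0.07), Pgk1 (0.41 ± 0.08), Pfkm (0.38 ± 0.12), Hk1 (0.30 ± 0.10) and Gpi1 (0.19 ± 0.05). With library totals, Hk1 and Gpi1 changed direction (-0.04 and -0.15). Gapdh has 78 near-identical copies in the annotation, and the counts assigned to those copies came to 17.4% of its own, so its level is uncertain.

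The 3 members of this group that fell included 2 that regulate or begin the pathway. Hk2, the inducible hexokinase that activated and hypoxic cells raise, had 0, 0.585 and 7.20 CPM (lowest, median and highest) in the VAT libraries, against 0.516, 3.16 and 9.79 CPM in the spleen libraries (log2 fold change -1.79 ± 0.43 SE, adjusted p = 0.000453). It was scarce in both, with 82 counts over 17 VAT libraries and 244 over 18 spleen libraries. Pfkfb3, which makes the activator of phosphofructokinase, had medians of 26.9 CPM in VAT and 38.6 CPM in spleen (log2 fold change -0.48 ± 0.11 SE, adjusted p = 0.000224).

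Eno3, an enolase best known from muscle, showed the largest fall of all members. It had 3.26, 6.43 and 15.8 CPM (lowest, median and highest) in the VAT libraries, against 23.1, 32.9 and 61.5 CPM in the spleen libraries (log2 fold change -2.31 ± 0.16 SE, adjusted p = 1.03e-15), and no VAT library reached any spleen library. Ldhb was the other of the 2 members of 37 whose VAT libraries all lay below the spleen libraries, where 4.02% of all genes did. Pfkp, Pfkfb4, Pgam1 and Eno1 were not called, with log2 fold changes from -0.57 (Pfkfb4) to 0.03 (Pfkp). Pfkfb4 passed when replicate C of spleen at ZT16 or replicate A of VAT at ZT20 was left out, and Eno1 passed as lower in VAT without replicate A of spleen at ZT16 (-0.12) or without the ZT20 libraries (-0.15). With library totals all 4 were called lower, Pfkp at -0.32, Pfkfb4 at -0.91, Pgam1 at -0.61 and Eno1 at -0.44.

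Among the 9 genes of pyruvate control, both directions were seen: 3 rose, 3 fell and 3 were not called, with a median log2 fold change of 0.04. Ldha, the subunit that favours lactate production, had 750.4, 1012 and 1414 CPM (lowest, median and highest) in the VAT libraries, against 579, 649.5 and 863 CPM in the spleen libraries (log2 fold change 0.59 ± 0.05 SE, adjusted p = 3.01e-12). Slc16a3 (MCT4), the lactate exporter of glycolytic cells, had 11.7, 21.2 and 31.3 CPM (lowest, median and highest) in the VAT libraries, against 3.76, 8.89 and 20.02 CPM in the spleen libraries (log2 fold change 1.18 ± 0.15 SE, adjusted p = 2.10e-08). Slc16a1 (MCT1), a carrier that moves lactate either way, rose too (log2 fold change 0.38 ± 0.14 SE, adjusted p = 0.0186), a call that was lost with library totals (0.03).

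Ldhb, the subunit that favours turning lactate back to pyruvate, had 10.2, 23.6 and 40.04 CPM (lowest, median and highest) in the VAT libraries, against 43.2, 59.7 and 96.2 CPM in the spleen libraries (log2 fold change -1.32 ± 0.13 SE, adjusted p = 1.53e-11). Pdk1, a HIF target in many cells and an inhibitor of the pyruvate dehydrogenase complex, had 50.4, 103 and 149.5 CPM (lowest, median and highest) in the VAT libraries, against 138, 267 and 355 CPM in the spleen libraries (log2 fold change -1.43 ± 0.10 SE, adjusted p = 4.92e-14). The groups of Pdk1 overlapped in a single pair, 1 spleen library of ZT16 (138 CPM) being below 1 VAT library of ZT8 (149.5 CPM). Pdk2, a kinase of the same family, was lower too (log2 fold change -0.49 ± 0.17 SE, adjusted p = 0.0151). Pdk3 and the 2 subunit genes of the complex itself, Pdha1 and Pdhb, were not called, with log2 fold changes of 0.10 ± 0.09, 0.04 ± 0.06 and -0.04 ± 0.07. With library totals, all 3 were called lower in VAT (-0.24, -0.31 and -0.39).

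In the hypoxia group, 5 of the 8 tested genes rose, 2 fell and 1 was not called, with a median log2 fold change of 0.43. Egln3, which encodes PHD3, a hydroxylase whose gene HIF itself switches on, had the largest difference of all members. It had 100.2, 127 and 155 CPM (lowest, median and highest) in the VAT libraries, against 1.13, 4.28 and 11.9 CPM in the spleen libraries (log2 fold change 4.72 ± 0.17 SE, adjusted p = 9.49e-21). Even the lowest VAT library lay far above the highest spleen library. Its mean level in VAT stayed between 112 CPM at ZT16 and 146 CPM at ZT0.

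Hif1a, the oxygen-regulated subunit of HIF, had 242, 343 and 543 CPM (lowest, median and highest) in the VAT libraries, against 133, 214 and 272 CPM in the spleen libraries (log2 fold change 0.72 ± 0.10 SE, adjusted p = 1.13e-07). Vhl, whose protein removes HIF-1α, was lower, with medians of 25.7 CPM in VAT and 33.4 CPM in spleen (log2 fold change -0.45 ± 0.10 SE, adjusted p = 0.000237). Kdm3a, a histone demethylase gene that HIF induces, had 30.4, 63.2 and 118 CPM (lowest, median and highest) in the VAT libraries, against 59.5, 95.3 and 161 CPM in the spleen libraries (log2 fold change -0.61 ± 0.11 SE, adjusted p = 7.36e-06). The groups of Hif1a, Vhl and Kdm3a overlapped, though each tissue difference had the same sign at all 6 times.

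Bnip3, a mitophagy receptor gene and a HIF target, had 6.16, 11.9 and 14.3 CPM (lowest, median and highest) in the VAT libraries, against 1.44, 6.18 and 10.1 CPM in the spleen libraries (log2 fold change 0.81 ± 0.18 SE, adjusted p = 0.000156). Bnip3 has 4 near-identical copies whose counts came to 37% of its own, so its level is uncertain. Bnip3, Pfkp, Pkm and Pdha1 also overlap another annotated gene each (Gm45507, Pitrm1, Gm49759 and Map3k15), and with the strand setting of the counting not given in the sources used here, reads of such a pair cannot be told apart. The relative of Bnip3, Bnip3l, rose by a log2 fold change of 0.21 ± 0.05, which turned to -0.14 with library totals. Egln2 (PHD1) rose (log2 fold change 0.54 ± 0.08 SE, adjusted p = 2.70e-07) and Egln1 (PHD2), the main oxygen sensor in most tissues, was not called (0.32 ± 0.19).

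**Figure D2:**
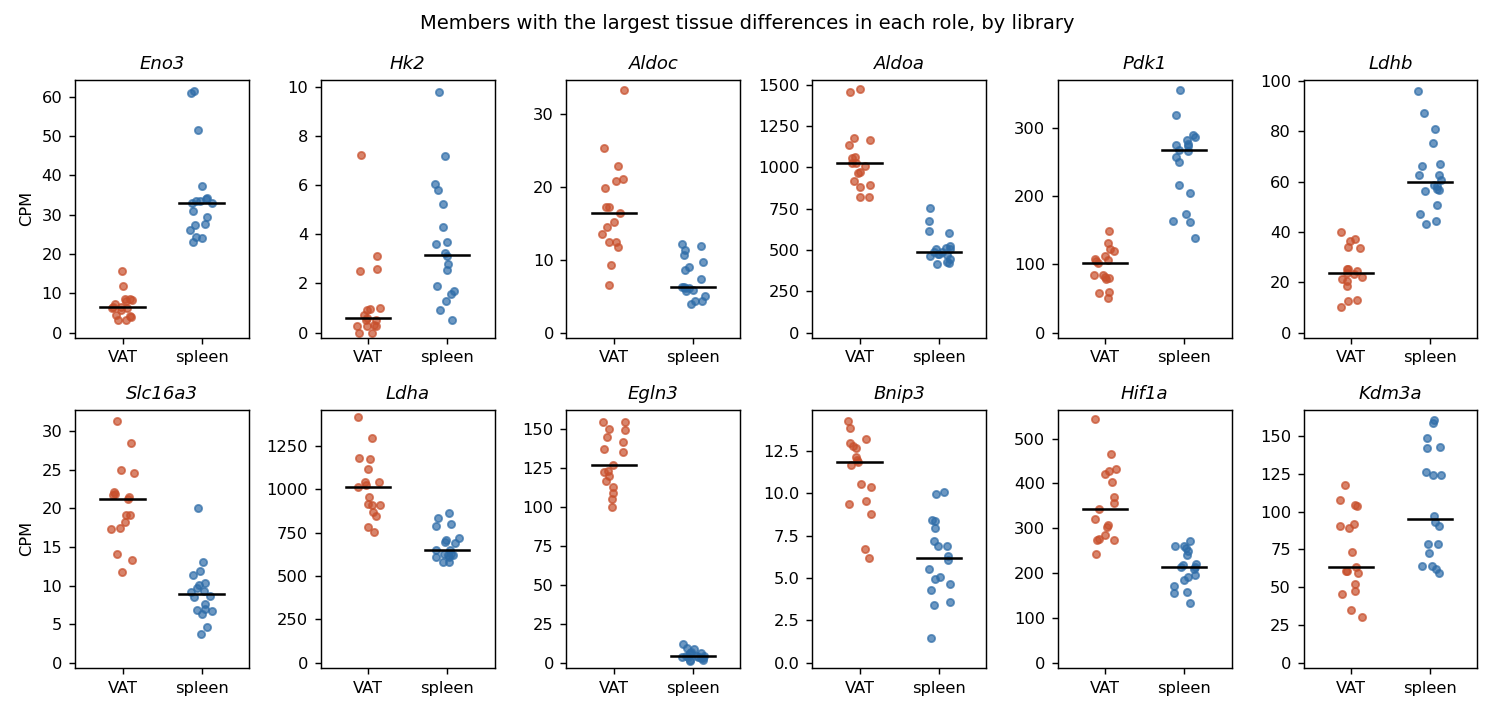
Level in CPM (y axis, from 0, a scale of its own in each panel) of the 4 called members with the largest tissue difference in each role, with 1 point per library and a bar at the median, for VAT (17 libraries, left) and spleen (18 libraries, right). Egln3, Eno3, Ldhb and Aldoa show no overlap between tissues, and Hk2 and Kdm3a overlap widely.

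Most steps of the pathway are served by paralogs, genes for enzymes of the same reaction, and their balance was compared next. The level of each gene per kilobase of its transcript was divided by the sum over its family in the same library, so library scaling cancels. A family here holds only those paralogs that are among the 38 genes, so the shares leave out others that were measured, such as Hk3, Slc2a8, Pfkfb1 and Pfkfb2. The lengths are those of 1 annotated transcript per gene. The difference in mean share between tissues was tested by shuffling VAT and spleen among the libraries of the same time, in a two-sided permutation test with 100000 draws, with p-values adjusted over all 26 shares of 11 families (shares of a pair mirror each other). The test was added after the levels had been seen. Of the 26 shares, 20 passed an adjusted p of 0.05, and 2.89e-05 is the smallest adjusted p that was reached, from the smallest p the permutations can give (1e-05). How many shares would pass among other families of genes was not computed. Between these tissues 62.2% of all genes tested were called for level, so shifted shares are not particular to these families.

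The PHD enzymes had the largest shift. Egln3 made up 45.4% ± 5.35 of the family level in VAT and 4.51% ± 2.64 in spleen (adjusted p = 2.89e-05), a difference of 40.9 percentage points, with no overlap between libraries. Egln2 held 50.9% ± 5.27 of the family level in VAT and 87.6% ± 5.60 in spleen (adjusted p = 2.89e-05). Egln1 held 3.70% ± 1.07 of the family level in VAT and 7.92% ± 4.80 in spleen (adjusted p = 9.45e-05). Per kilobase, the level of Egln3 in VAT was 48.6 ± 6.69 CPM, against 1.90 ± 1.07 CPM in spleen, and that of Egln2 was 54.6 ± 8.08 CPM in VAT and 38.3 ± 8.36 CPM in spleen (SD, n = 17 VAT and 18 spleen libraries, as for the shares).

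Among the pyruvate dehydrogenase kinases, Pdk1 and Pdk3 exchanged places. Pdk1 held 35.1% ± 10.2 of the family level in VAT and 57.1% ± 9.37 in spleen, and Pdk3 held 56.9% ± 10.4 of the family level in VAT and 35.3% ± 8.43 in spleen (adjusted p = 2.89e-05 for both). Pdk1 had a lower mean share in VAT at all 6 times. The level of Pdk3 per kilobase was 30.5 ± 7.07 CPM in VAT and 28.8 ± 5.67 CPM in spleen. That of Pdk1 was 18.6 ± 5.28 CPM in VAT and 47.7 ± 11.4 CPM in spleen, and of these 2 genes only Pdk1 was called for level in the first comparison. The share of Pdk2 was 8.01% in VAT and 7.57% in spleen (adjusted p = 0.64).

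In the enolases and lactate dehydrogenases 1 gene dominated in both tissues, more so in VAT. Eno1 made up 94.4% ± 1.64 of the family level in VAT and 84.5% ± 3.10 in spleen and Eno3 3.54% ± 1.18 of the family level in VAT and 14.6% ± 3.24 in spleen (adjusted p = 2.89e-05 for both). Eno2, known from neurons, held 2.03% ± 1.23 of the family level in VAT and 0.898% ± 0.435 in spleen (adjusted p = 0.00039). Ldha held 96.8% ± 1.02 of the family level in VAT and 88.96% ± 1.66 in spleen, so that the Ldhb part was 3.21% in VAT and 11.04% in spleen (adjusted p = 2.89e-05). The libraries of the 2 tissues did not overlap in the shares of Eno1, Eno3, Ldha and Ldhb. Eno1, Ldha and Ldhb have near-identical copies in the annotation (3, 4 and 1), and reads lost to such copies were not measured.

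Smaller shifts were seen elsewhere. Phosphofructokinase had 41.6% ± 3.28 of the family level in VAT and 35.3% ± 3.23 in spleen from Pfkl, the liver type (adjusted p = 7.8e-05), and 50.3% ± 3.42 of the family level in VAT and 57.6% ± 3.30 in spleen from Pfkp, the platelet type (adjusted p = 2.89e-05). Hk1 was nearly the whole of the level of Hk1 and Hk2 together, 99.4% in VAT and 98.2% in spleen (adjusted p = 0.004). Bnip3 held 11.6% ± 2.76 of the family level in VAT and 7.75% ± 2.80 in spleen beside Bnip3l (adjusted p = 0.00032).

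The carriers gave the least stable calls. Slc16a3 held 33.7% ± 9.59 of the family level in VAT and 24.5% ± 14.5 in spleen beside Slc16a1 (adjusted p = 0.0291), a call lost (largest adjusted p 0.0746) without any of replicates B, C or D of spleen at ZT8, D of spleen at ZT12, or A or C of VAT at ZT20. Slc2a3 held 78.1% ± 10.3 of the family level in VAT and 72.8% ± 8.40 in spleen beside Slc2a1 (adjusted p = 0.0485), a call lost without the ZT20 libraries (0.0614) and without any of 22 of the 35 libraries taken singly (largest 0.105). The shares of Aldoa and Aldoc, of Pfkfb3 and Pfkfb4, of Pfkm and of Pdk2 were not called, with differences of at most 1.90 percentage points.

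**Figure D3:**
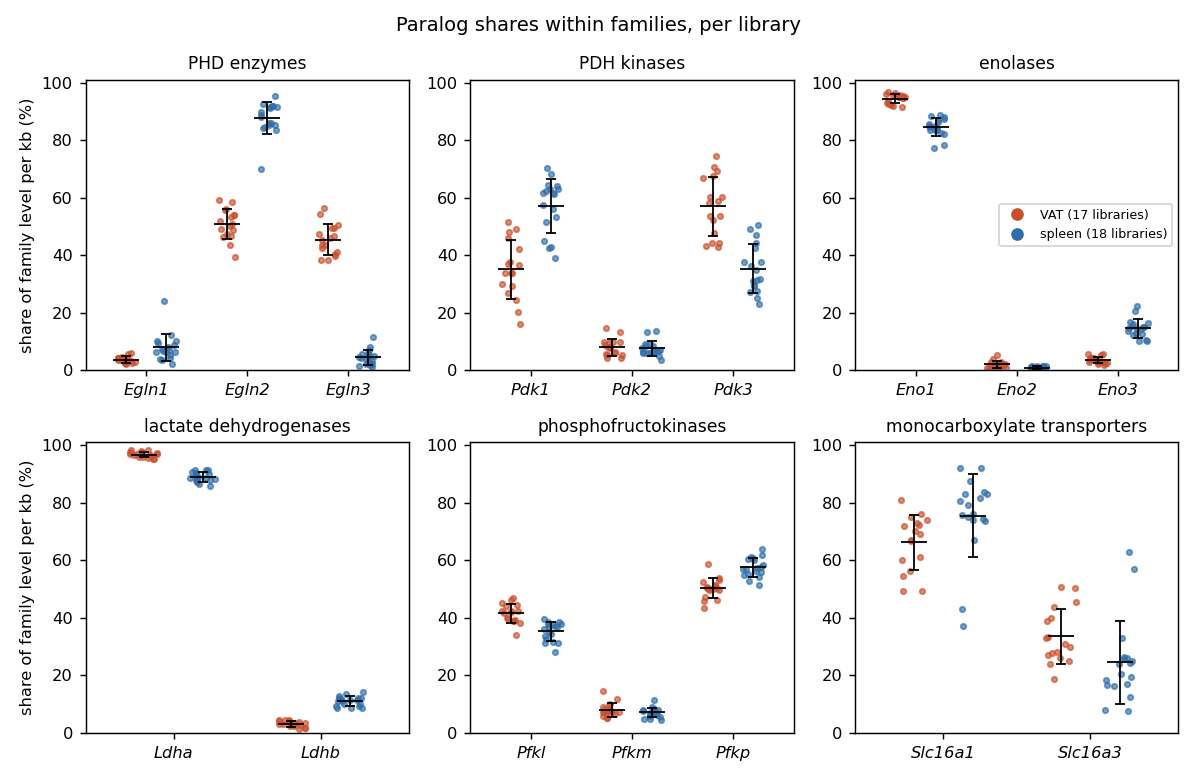
Share of each paralog in the summed level per kilobase of its family (y axis, percent) in each library, for 6 families, with VAT on the left of each pair (17 libraries) and spleen on the right (18 libraries), and bars for the mean and SD. Egln3 takes 45.4% of the PHD level in VAT and 4.51% in spleen, and Pdk1 and Pdk3 exchange places.

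The wider pathways were described by 3 lists of other genes. Of 27 tested hypoxia genes outside the 38, 10 were higher in VAT, 7 lower and 10 not called, with a median log2 fold change of 0.18. Over all genes tested, 28.4% were higher and 33.8% lower, 62.2% in all, with a median of -0.11. Hilpda, a HIF target that blocks lipid breakdown, averaged 534 ± 111 CPM in VAT and 17.9 ± 4.78 CPM in spleen (log2 fold change 4.90 ± 0.11). Adm, the adrenomedullin gene, had 1.70 ± 1.81 CPM in VAT and 0.0658 ± 0.149 CPM in spleen (log2 fold change 4.23 ± 0.72), at a level so near 0 in spleen that its fitted fold change depends on the prior count and is not a bound. Another 3 were picked after their values were seen: Ndrg1, a stress gene, averaged 263 ± 48.3 CPM in VAT and 37.8 ± 6.33 CPM in spleen (log2 fold change 2.78 ± 0.09), Ero1l, an oxidase of the endoplasmic reticulum, 236 ± 48.8 CPM in VAT and 24.5 ± 7.75 CPM in spleen (log2 fold change 3.27 ± 0.11), and Plod2, a collagen hydroxylase gene, 33.4 ± 15.5 CPM in VAT and 1.72 ± 1.43 CPM in spleen (log2 fold change 4.15 ± 0.30).

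Other genes that HIF is known to induce were lower in VAT, also chosen after their values were seen. P4ha1, a subunit of collagen prolyl hydroxylase, averaged 102 ± 12.5 CPM in VAT and 170.4 ± 24.6 CPM in spleen (log2 fold change -0.74 ± 0.06), with no overlap between tissues. Mif, a cytokine gene, averaged 27.9 ± 8.03 CPM in VAT and 38.9 ± 11.6 CPM in spleen (log2 fold change -0.43 ± 0.10), and Car9, carbonic anhydrase 9, 0.418 ± 0.615 CPM in VAT and 1.24 ± 1.30 CPM in spleen (log2 fold change -1.65 ± 0.61). Car9 was near 0 in both tissues, with an SD above its mean, so its fold change is uncertain. Known HIF targets among the 38 were found in both directions: Egln3, Bnip3, Slc2a1, Aldoa, Pgk1 and Ldha, among others, were higher in VAT, and Pdk1, Kdm3a and Hk2 lower.

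Of 21 tested genes of glucose handling, 8 were higher in VAT and 3 lower, where 28.4% of all genes were higher and 33.8% lower. Hk3, a hexokinase of myeloid cells, averaged 0.402 ± 0.551 CPM in VAT and 2.75 ± 2.18 CPM in spleen (log2 fold change -3.10 ± 0.53), and Slc2a8, an intracellular glucose carrier gene, 42.04 ± 11.4 CPM in VAT and 14.6 ± 4.49 CPM in spleen (log2 fold change 1.56 ± 0.12). The 6 markers of macrophages or monocytes summed to 6.94 to 18.5 CPM in VAT and 21 to 84.5 CPM in spleen, with 4 of 6 lower in VAT, as Hk3 was, and their part in it was not tested. Of 13 tested genes of pyruvate and lactate, 5 were higher and 2 lower, namely Pcx, pyruvate carboxylase, with 1.21 ± 1.28 CPM in VAT and 6.37 ± 3.04 CPM in spleen (log2 fold change -2.50 ± 0.36), and Ldhd, D-lactate dehydrogenase, with 2.03 ± 1.68 CPM in VAT and 6.21 ± 3.50 CPM in spleen (log2 fold change -1.88 ± 0.36).

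The second comparison asked whether the members followed a 24 h cosine in each tissue, with the amplitude given as the fitted log2 difference between peak and trough. In VAT, 5 of 37 were called, against 1.88% of all genes, and in spleen 3 of 37, against 1.99%. At an unadjusted p under 0.05 there were 13 in VAT and 9 in spleen, where 17.5% and 15.6% of all genes passed. The median amplitude of the 37 was 0.38 in VAT and 0.38 in spleen, below the 0.52 and 0.48 of all genes tested. No member differed in rhythm between the tissues (5 at an unadjusted p under 0.05 with edgeR; DESeq2 gave 0 adjusted and 4 unadjusted), where 0.00629% of all genes did, and 9.09% at an unadjusted p under 0.05.

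The called members did not share 1 time of day. Eno1 and Ldha peaked in the dark phase in VAT, and Pdk1 and Kdm3a in the light phase. The fitted peak of Vhl in VAT, ZT11.06, lay near lights-off, and its mean was highest at ZT12. In VAT, the level of Eno1 in CPM was 250.3, 248 and 243 at ZT0, 255, 186 and 248 at ZT4, 171, 189 and 199.8 at ZT8, then 219.8, 172 and 189.5 at ZT12, 263, 253 and 297 at ZT16, 323 and 353 at ZT20 (amplitude 0.75 ± 0.13, peak ZT20.36, adjusted p = 0.00453). Both ZT20 libraries were above all others, and the libraries of ZT8 and ZT12, with 1 of ZT4, were the lowest. In spleen it was 249, 238 and 213 at ZT0, 262, 217 and 242 at ZT4, 247, 226 and 243 at ZT8, then 264, 301 and 251 at ZT12, 212, 303 and 257 at ZT16, 275, 298 and 332 at ZT20 (amplitude 0.27 ± 0.12, peak ZT17.03, adjusted p = 0.411).

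The level of Ldha in VAT, in CPM, was 1179, 1012 and 869 at ZT0, 1175, 750.4 and 1043 at ZT4, 780.4, 845 and 911 at ZT8, then 953, 914 and 907 at ZT12, 1042, 1021 and 1113 at ZT16, 1297 and 1414 at ZT20 (amplitude 0.50 ± 0.12, peak ZT20.23, adjusted p = 0.0358). Its ZT20 libraries were again the highest, and those of ZT0 and ZT4 were spread widely. Its CPM in spleen were 629, 612 and 624 at ZT0, 709, 582 and 609 at ZT4, 651, 648 and 579 at ZT8, then 623, 695 and 691 at ZT12, 621, 863 and 799 at ZT16, 721, 786 and 836 at ZT20 (amplitude 0.34 ± 0.11, peak ZT17.43, adjusted p = 0.168).

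The level of Pdk1 in VAT, in CPM, was 83.9, 82.2 and 107 at ZT0, 78.4, 120.1 and 122 at ZT4, 149.5, 131 and 112 at ZT8, then 108, 105 and 79.5 at ZT12, 103, 84.9 and 59.6 at ZT16, 50.4 and 57.4 at ZT20 (amplitude 0.94 ± 0.21, peak ZT7.37, adjusted p = 0.0312). Here the ZT20 libraries were the lowest, and the mean was highest at ZT8. Its CPM in spleen were 216, 274 and 266 at ZT0, 204, 319 and 249 at ZT4, 257, 282 and 355 at ZT8, then 289, 267 and 273 at ZT12, 276, 138 and 161 at ZT16, 287, 174 and 163 at ZT20 (amplitude 0.56 ± 0.19, peak ZT6.83, adjusted p = 0.218). The spread within ZT16 and ZT20 was wide in spleen, with 1 library of each near the daytime level.

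Kdm3a was called in both tissues. Its level in VAT, in CPM, was 45.5, 52.3 and 90.4 at ZT0, 60.7, 108 and 60.9 at ZT4, 118, 92.02 and 104 at ZT8, then 63.2, 89.3 and 104 at ZT12, 47.2, 73.4 and 59.3 at ZT16, 30.4 and 34.7 at ZT20 (amplitude 1.24 ± 0.25, peak ZT8.17, adjusted p = 0.0187). In spleen, in CPM, it was 124, 159 and 149 at ZT0, 72.6, 161 and 127 at ZT4, 143, 142 and 125 at ZT8, then 90.4, 78.8 and 97.5 at ZT12, 93.2, 61.98 and 64.3 at ZT16, 78.7, 59.5 and 64.1 at ZT20 (amplitude 1.08 ± 0.23, peak ZT4.54, adjusted p = 0.0238). Both tissues were low at ZT20. At ZT0, 2 of the 3 VAT libraries were below the VAT median, and all 3 spleen libraries were above the spleen median. The fitted peaks lay at ZT8.17 in VAT and ZT4.54 in spleen, a difference in rhythm with an unadjusted p of 0.00754 that failed the correction (adjusted p = 0.374).

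The level of Vhl in VAT, in CPM, was 21.5, 28.6 and 14.8 at ZT0, 34.3, 21.3 and 18.3 at ZT4, 25.03, 24.1 and 31.9 at ZT8, then 39.8, 35.1 and 45.5 at ZT12, 27.3, 25.7 and 28.5 at ZT16, 15.2 and 21.1 at ZT20 (amplitude 0.85 ± 0.21, peak ZT11.06, adjusted p = 0.0457). All 3 libraries of ZT12 were above those of every other time. Its CPM in spleen were 25.7, 31.8 and 34.2 at ZT0, 31.1, 37.7 and 28.8 at ZT4, 32.7, 31.02 and 36.8 at ZT8, then 44.1, 39.7 and 38.2 at ZT12, 29.4, 49 and 32.5 at ZT16, 39.8, 31.9 and 36.8 at ZT20 (amplitude 0.34 ± 0.20, peak ZT13.99, adjusted p = 0.602).

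Gpi1, glucose-6-phosphate isomerase, was called in spleen, where its level in CPM was 343, 357 and 379 at ZT0, 441, 359.8 and 392 at ZT4, 369, 363 and 375 at ZT8, then 428, 426 and 386 at ZT12, 405, 547 and 479 at ZT16, 459.5, 481 and 596 at ZT20 (amplitude 0.43 ± 0.11, peak ZT17.53, adjusted p = 0.046). In VAT, in CPM, it was 471, 459 and 422 at ZT0, 479, 404 and 464 at ZT4, 420.1, 411 and 485 at ZT8, then 552, 445 and 466 at ZT12, 519, 489.5 and 481 at ZT16, 523 and 584 at ZT20 (amplitude 0.26 ± 0.11, peak ZT17.66, adjusted p = 0.343). The highest means were at ZT20 in both tissues. Slc16a1 was called in spleen, with a level in CPM of 39.7, 29.4 and 33.5 at ZT0, 41.9, 34.03 and 34.5 at ZT4, 55.6, 53.9 and 47.6 at ZT8, then 28.03, 33.2 and 45.4 at ZT12, 29.8, 8.74 and 20.4 at ZT16, 32.9, 12.1 and 18.02 at ZT20 (amplitude 1.30 ± 0.30, peak ZT6.49, adjusted p = 0.041). The 3 libraries of ZT8 were above all others. In VAT its level in CPM was 37.5, 60.02 and 55.8 at ZT0, 29.4, 39.6 and 58.4 at ZT4, 59.9, 26.9 and 31.3 at ZT8, then 46.04, 55.8 and 45.5 at ZT12, 55.8, 44.1 and 39.5 at ZT16, 17.5 and 31.1 at ZT20 (amplitude 0.16 ± 0.31, peak ZT8.81, adjusted p = 0.958). Its VAT mean was lowest at ZT20 (24.25 CPM) and lay between 39.35 and 51.1 CPM at the other times.

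**Figure D4:**
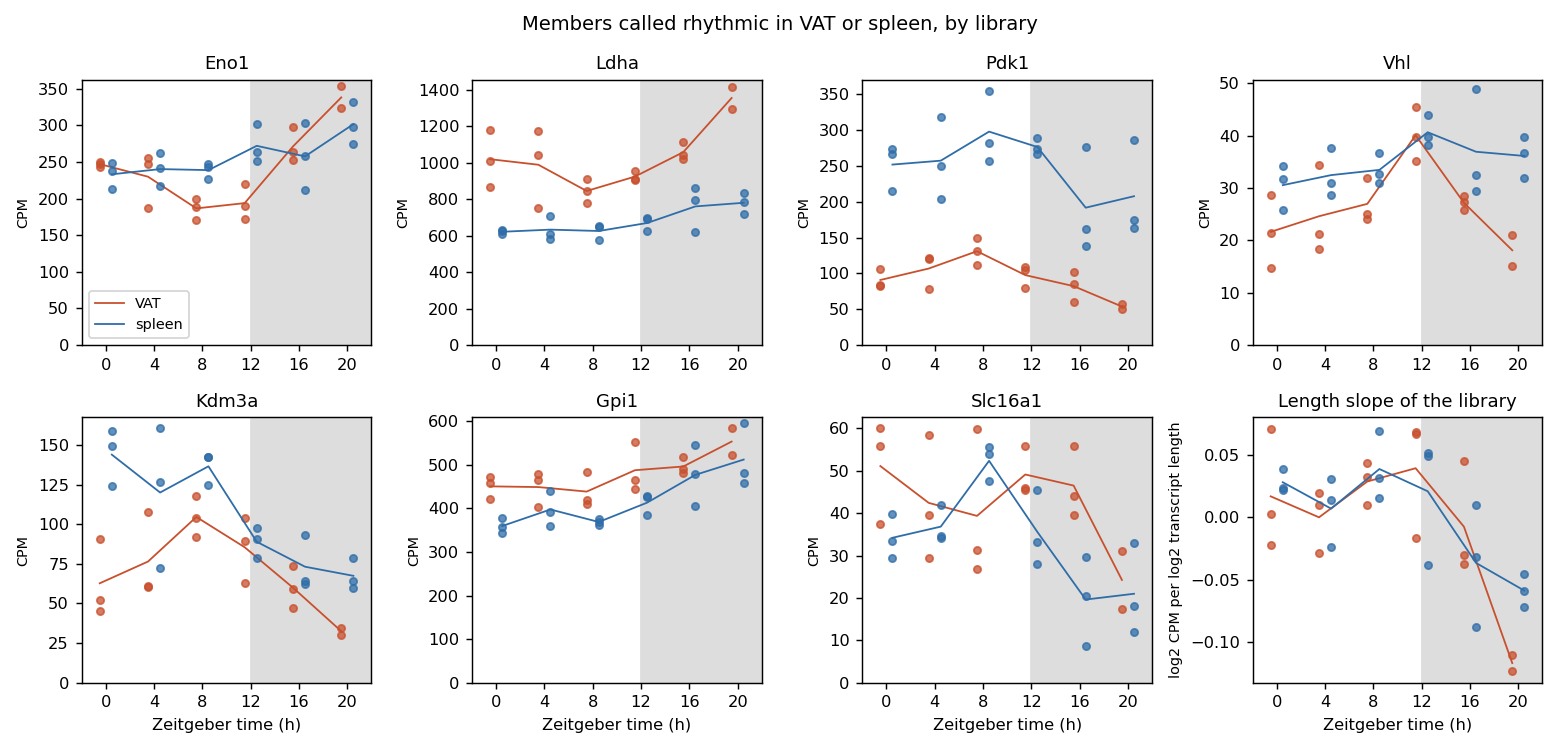
Level in CPM (y axis) of the 7 members called rhythmic in VAT or spleen against Zeitgeber time (x axis), and in the last panel the length slope of each library, with 1 point per library, lines through the means, VAT drawn just left and spleen just right of each time, and the dark phase shaded. The VAT libraries of ZT20 are the highest for Eno1 and Ldha and the lowest for Pdk1, Kdm3a and the slope. The slope is that of deviations from each gene's tissue mean on log2 transcript length.

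For each library, the deviation of each gene's log2 CPM from its mean over the libraries of that tissue was regressed on log2 transcript length. The values are centred within each tissue, so they do not compare VAT with spleen. This length slope was added as a covariate. With it, edgeR called 0 members rhythmic in VAT and 0 in spleen (8 and 5 at an unadjusted p under 0.05). Of all 15910 genes it called 27 in VAT and 100 in spleen, against 299 and 316 without the covariate. Without the ZT20 libraries 0 and 0 members were likewise called (6 and 6 unadjusted). Of the 14585 genes then tested, 17 in VAT and 284 in spleen were called. The slope was -0.123 and -0.111 in the VAT libraries of ZT20, where the lowest at any other time in VAT was -0.0375, so long transcripts were relatively low at that time. In spleen it was -0.0717 to -0.0458 at ZT20 and -0.0879 to 0.00980 at ZT16. With the slope as a covariate the amplitude of Eno1 in VAT was 0.49 (adjusted p = 0.0935), that of Kdm3a in VAT 0.72 (0.221) and that of Kdm3a in spleen 0.64 (0.12).

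Peak time and transcript length went together among the members. The 21 members with a fitted dark-phase peak in VAT had a median transcript of 2027 bases, and the 16 with a light-phase peak 3790.5 bases. In spleen the medians were 2115 bases for 23 members and 3905 bases for 14. All genes tested showed the same order, with 2222.5 bases for the dark phase and 3340 bases for the light phase in VAT, and 2226 and 3313 bases in spleen. A dark-phase peak was fitted for 51.7% of all genes in VAT and 50.4% in spleen. Among the 5 called in VAT, Eno1 (2027 bases) and Ldha (1766 bases) peaked in the dark and Pdk1 (5185 bases) and Kdm3a (4853 bases) in the light. Vhl (2792 bases) had its fitted peak near lights-off, at ZT11.06.

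**Figure D5:**
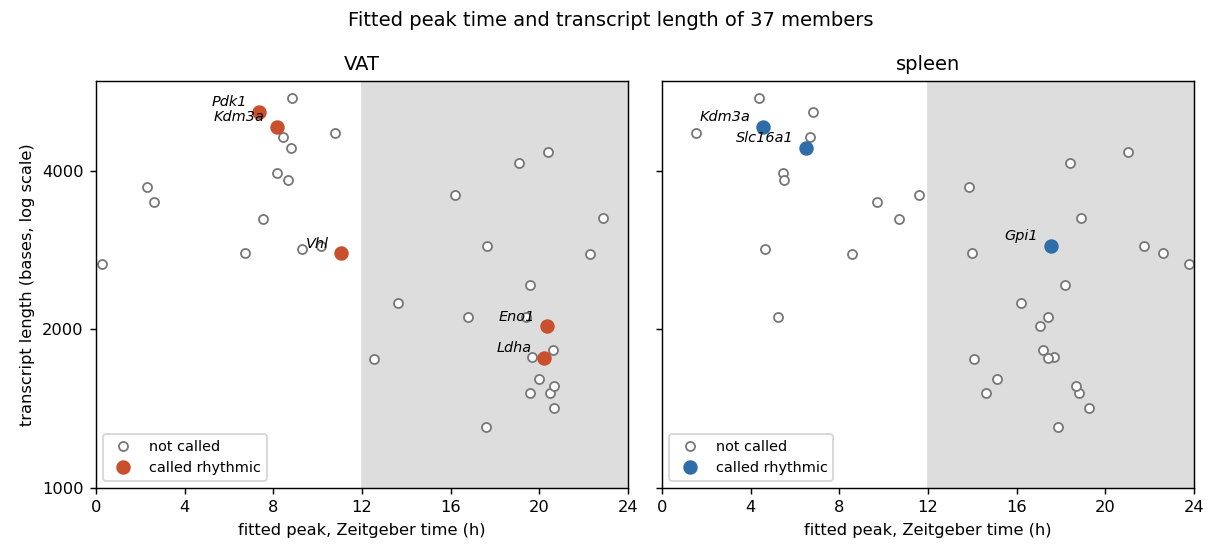
Fitted peak time (x axis, Zeitgeber time in hours, dark phase shaded) against transcript length (y axis, bases, log scale) of the 37 tested members in VAT (left) and spleen (right); filled points passed an adjusted p of 0.05. Members with light-phase peaks are longer, with medians of 3790.5 bases in VAT and 3905 bases in spleen.

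Single libraries also decided these calls. Eno1 in VAT kept its call whichever of the 35 libraries was left out. Vhl in VAT lost it without any of 22 of the 35 libraries taken singly (largest adjusted p 0.131), and Gpi1 in spleen without any of 18 (0.137). Ldha in VAT lost it without any of 9 VAT libraries (0.189), namely A of ZT0, C of ZT4, B, C or D of ZT8, B or D of ZT12 and A or C of ZT20. Slc16a1 in spleen lost it without any of 9 spleen libraries (0.103), namely B of ZT0, C of ZT4, B, C or D of ZT8, B or C of ZT16 and B or C of ZT20. Pdk1 in VAT lost it without any of 6 (0.137), namely C of ZT4, B or C of ZT8, C of ZT16 and A or C of ZT20. Kdm3a in VAT lost it without replicate B of ZT8 or without A or C of ZT20, and in spleen without C of ZT4, C of ZT8, B or C of ZT16 or C of ZT20. The number called in VAT was 1 without B of ZT8 or A or C of ZT20, 2 without C of ZT4, 3 without A of ZT0, C or D of ZT8 or B or D of ZT12, and 9 without C of ZT0. In spleen it was 0 without C of ZT4, C of ZT8, B or C of ZT16 or C of ZT20. It was 1 without B of ZT0, B or D of ZT8 or B of ZT20, and 5 without A of ZT16. Over all genes, the number called with a library left out was 54 to 1008 in VAT and 98 to 569 in spleen. Pfkfb3 in VAT (amplitude 1.01 ± 0.26, peak ZT8.43, adjusted p = 0.0562) was not called, but was when any of 4 libraries was left out, with no low-count filter, with DESeq2 and with time as 6 levels.

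Among the 27, 21 and 13 tested genes of the 3 lists outside the 38, 4 were called rhythmic in VAT and 1 in spleen, against the 1.88% and 1.99% of all genes. In VAT these were Galm, an enzyme that prepares sugars for glycolysis (amplitude 1.11 ± 0.19, peak ZT22.98, adjusted p = 0.00453), Taldo1, of the pentose phosphate pathway (amplitude 0.64 ± 0.14, peak ZT19.89, adjusted p = 0.0263), Wsb1, a HIF-induced ubiquitin ligase gene (amplitude 0.56 ± 0.13, peak ZT8.58, adjusted p = 0.0373), and the histone demethylase gene Kdm4c (amplitude 0.92 ± 0.22, peak ZT9.3, adjusted p = 0.0391). In spleen it was Kdm4b, another histone demethylase gene (amplitude 1.74 ± 0.28, peak ZT7.23, adjusted p = 0.00203). The 3 demethylase genes named here, Kdm3a included, had light-phase peaks wherever they were called, a grouping made after the values were seen. Of all genes, 51.7% in VAT and 50.4% in spleen had a dark-phase peak. Kdm3a was not called with the length slope or without the ZT20 libraries.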

How the data were processed

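RNA from 1000 sorted cells per library was primed with oligo(dT), amplified and fragmented with a transposase, and sequenced as paired reads of 25 bases, per the labels' protocols. The deposited table holds whole-number counts of reads per gene. The submitters' processing notes name STAR 2.7.3a, featureCounts and mm10. For strand setting, annotation release and treatment of multi-mapped reads, no setting is given in the sources used here. The counts were fitted with edgeR 4.0.16 in R 4.3.3 (quasi-likelihood, robust, TMM, filterByExpr over 12 groups of tissue and time, 15910 genes tested). For tissue, the average over the 6 times of spleen was subtracted from that of VAT. Rhythm was tested as the cosine and sine of 24 h in each tissue, in 1 fit (2 degrees of freedom), and the difference of these terms between tissues likewise. Adjustment was Benjamini-Hochberg over all genes tested, at 0.05. Each fit was tested on simulated data.

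Transcript lengths were those of the longest APPRIS principal transcript in GENCODE M21 (GRCm38). Gene symbols matched it for 53009 of 55011. Near-identical copies were transcripts with at least 95% identity over 200 bases (BLAST). Alternatives were RLE factors, library totals, no filter, DESeq2 1.42.0, a replicate block, the length slope of each library, no ZT20 libraries, time as 6 levels, each tissue alone, and each library left out. The main fits did not pair VAT and spleen libraries by replicate letter, and the labels do not say what the letters mark.

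Between tissues the text describes in full, in each role, the 4 called members with the largest absolute log2 fold change, and every member called rhythmic. In each list of other genes it names the 2 called genes with the largest change. The members and lists were chosen with earlier results of these data known. The counts themselves limit precision at low levels, and replicate libraries differed by more than counting error.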

Additional observations from a re-analysis of the deposited data

How the results depend on the processing

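The tissue counts (21 higher, 8 lower) were within 1.5 times of these under RLE factors, no filter, DESeq2, the replicate block, without ZT20 libraries and with each library left out (19 to 22 higher, 7 to 9 lower). Library totals gave 12 higher and 17 lower and turned the sign of Hk1 (-0.0445), Gpi1 (-0.154), Pfkp (-0.317), Pdk3 (-0.243), Pdha1 (-0.311), Egln1 (-0.0295) and Bnip3l (-0.138). Their construction differs only in scaling. In the tissue fit, the replicate block was the time and letter shared by a VAT and a spleen library. It put Pfkp at -5e-04 and ended the call of Slc16a1 between tissues (0.33, adjusted p = 0.0514). Same-lettered libraries of the 2 tissues did not deviate together from their group means (17 pairs, correlation -0.112 to 0.057, median -0.011). The labels do not say what the letters mark. With 2 or 3 libraries per group, these correlations cannot show whether a letter marks a shared mouse or day. In the rhythm fit, the block was the letter alone, taken across all times. With that block 3 members were rhythmic in VAT and 0 in spleen, against 5 and 3 without it. Over all genes the block gave 124 in VAT and 171 in spleen, against 299 and 316.

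Rhythm counts moved most. With the length slope, edgeR called 0 and 0 members in VAT and spleen (8 and 5 at an unadjusted p under 0.05), and 27 and 100 of 15910 genes. Without ZT20 libraries it called 0 and 0 members (6 and 6 unadjusted), and 17 and 284 of 14585 genes. DESeq2 called 9 and 6 members, and 675 and 854 of all 15910 genes, against 299 and 316 in the main fit. No filter (47525 genes tested) called 8 in VAT and 3 that differed in rhythm between tissues, Slc2a3, Hif1a and Kdm3a. Over all genes it called 1572 in VAT and 1547 that differed in rhythm, against 299 and 1 in the main fit. Time as 6 levels called 10 in VAT, and VAT libraries fitted alone 1. Over all genes these called 813 of 15910 and 42 of 13379. Leaving out each library gave 1 to 9 in VAT, 0 to 5 in spleen and 0 to 0 for the difference. Over all genes, these fits called 54 to 1008 in VAT and 98 to 569 in spleen. The cause of these changes was not tested.

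Chosen after seeing the data, the shares of paralogs were recomputed with the union of exons as length, without ZT20 libraries and with each library left out. Without ZT20 libraries the difference in share, which was not called, turned to 0.0256 percentage points for Aldoa and -0.0256 for Aldoc. Low counts limit what can be said of Vegfa, Hk2, Adm and Car9.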
